A study of Mus musculus with 4 samples.

Results

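The 10 genes described here encode the chaperonins of the mouse cell, the 8 subunits of the cytosolic chaperonin CCT (*Tcp1*, *Cct2*, *Cct3*, *Cct4*, *Cct5*, *Cct6a*, *Cct7* and *Cct8*) and the mitochondrial pair *Hspd1* (HSP60) and *Hspe1* (HSP10). They were found by gene symbol among the 24537 genes of the deposited RNA-seq tables, and all 10 were among the 9523 genes tested, those averaging 2 RPKM or more over the libraries (RPKM are reads scaled to transcript length and to the mapped reads of the library). The RNA came from group 2 innate lymphoid cells (ILC2s), type 2 cytokine-producing lymphocytes without an antigen receptor, sorted from bronchoalveolar lavage (BAL) fluid as Lineage-Sca-1+YFP+ cells. In one group the airway inflammation was acute and induced by the alarmin cytokine IL-33, and the labels call the ILC2s CD25High. In the other it was chronic and induced by house dust mite extract (HDM), and the labels call them CD25Low. There were 2 libraries per group and none from untreated mice. Here rose and fell therefore mean higher and lower after IL-33 than after chronic HDM. A rise after IL-33 cannot be told apart from a lower level after chronic HDM, nor the kind of stimulus from its duration. All mice were adults on a C57BL/6 background and carried the GATIR reporter, an IRES-YFP cassette in the 3′ untranslated region of *Gata3*, so that YFP marks cells that transcribe this ILC2 transcription factor. The labels give the genotype as Gata3-YFP/YFP for IL-33 and Gata3-YFP/WT for HDM, whereas the methods of the study name homozygous mice only. By the labels, genotype and treatment cannot be told apart. How many mice went into a library was not given in the sources used here, so the p-values measure the spread between libraries only.

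Chaperonins are barrel-shaped machines that enclose an unfolded protein and use ATP to drive a cycle of closing and opening. CCT is built from a pair of stacked rings, each with a single copy of every subunit, and is needed for the folding of actin and tubulin and of many proteins with WD40 repeats, among them cell cycle regulators. HSP60 forms the barrel of the mitochondrial matrix and HSP10 its lid, and together they fold proteins imported into mitochondria. In lymphocytes, chaperonin levels are known to go up when resting cells start to grow and divide.

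*Il2ra*, the gene for CD25, followed the labels, with 432 and 376 RPKM in the IL-33 libraries and 27.6 and 22.0 RPKM in the chronic HDM libraries. All 14 ILC2 markers were tested, with summed levels of 4282 and 4317 RPKM after IL-33, against 3406 and 3266 RPKM after chronic HDM. They went both ways. With a log2 difference beyond 1 and an adjusted p (limma) below 0.05, 3 were higher after IL-33 (*Il2ra*, *Il5* and *Il13*) and 4 were lower (*Gata3*, *Il1rl1*, *Il7r* and *Areg*). Over all 9523 genes tested, 1311 were higher and 455 lower after IL-33 by this rule. *Gata3*, the gene that carries the sort reporter, had 14.9 and 18.9 RPKM after IL-33, against 216 and 195 RPKM after chronic HDM (log2 fold change -3.54; limma adjusted p = 0.00665). The libraries held 12054781 and 10696041 reads in genes after IL-33, against 16092269 and 15650720 after chronic HDM. The share of these reads on 45S ribosomal RNA was 4.95% and 3.45% after IL-33, against 17.4% and 25.4% after chronic HDM. The chronic HDM pair was also the less alike, with an SD of the log2 difference between its libraries of 1.13 over all genes tested, against 0.434 for the IL-33 pair. Macrophage markers summed to 1269.5 and 288 RPKM after IL-33, against 3160.2 and 8599.98 RPKM after chronic HDM, mostly through *Chil3* and *Lyz2*, while *Fcgr1* was at 0 in every library. In bulk RNA, fewer cells of a type and less RNA per cell cannot be told apart.

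Every chaperonin gene was higher in both IL-33 libraries than in both chronic HDM libraries. The same held for 41.7% of all genes tested, so this count is to be read against a wide background. Their log2 fold changes, fitted with limma on log2(RPKM + 1), lay between 0.82 and 2.03, against a median of 0.28 over all genes tested. Calls needed an adjusted p (Benjamini-Hochberg over all 9523 genes) below 0.01 and a log2 fold change above 1. By this rule 4 of the 10 rose after IL-33 (*Cct3*, *Cct5*, *Cct6a* and *Cct8*), where 2.8% of all genes tested were called higher after IL-33. With an adjusted p under 0.05 and the same fold, 7 of the 10 rose, where the background was 13.8%. The 3 not called by either rule were *Cct2*, *Cct4* and *Hspe1*, whose log2 fold changes were below 1. The genes were covered by 1077 to 16849 reads each in a library, with a 95% Poisson counting error of at most 5.97% of the value. Without IL-33 replicate 1 or without IL-33 replicate 2, 0 of the 10 passed either rule, with the median log2 fold change of the CCT subunits at 1.45 and 1.44, and the spread within groups then came from the chronic HDM pair alone. Without chronic HDM replicate 1 and without chronic HDM replicate 2, that median was 1.47 and 1.44, against 0.31 and 0.23 over all genes tested. The spread within groups then came from the IL-33 pair alone. By limma-voom on reads recovered from the RPKM, 0 of the 10 and 0 of all genes tested passed the first rule. The second rule called 7 of the 10. With 45S ribosomal RNA left out of the scaling, the median log2 fold change was 1.21 for the CCT subunits and 0.08 for all genes, against 1.44 and 0.28 as deposited. Then 2 of the 10, and 122 of all genes tested in either direction, passed the first rule, and 6 of the 10 the second. The share of all genes at the second rule was not counted for these alternatives.

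**Figure D1:**
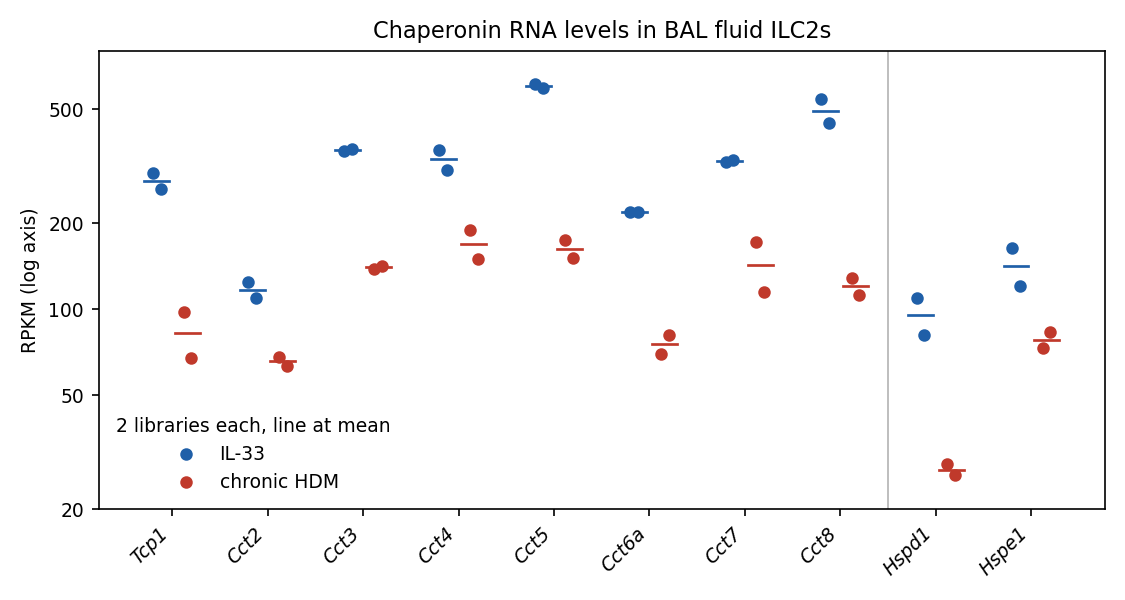
RPKM on a log axis for each chaperonin gene in the 2 IL-33 libraries (blue) and the 2 chronic HDM libraries (red), with a line at each group's mean. For all 10 genes both blue points lie above both red points, from Cct5 at 613 and 591 RPKM after IL-33 against 174 and 152 after chronic HDM down to Hspd1 at 109 and 81.2 against 28.7 and 26.4.

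The start regions of 9 of the 10 genes were looked up in RefSeq on GRCm38.p6 (mm10), as windows from 250 bases before to 50 bases after the start of transcription. *Cct4* had no such window and was not searched. RefSeq gives a pair of start windows for *Cct2*, *Cct5* and *Hspd1*, and for these the window nearest to the start listed in the files was counted, whereas the windows over all genes include several for some genes. Of 6 core or stress-related motifs searched on both strands, the GC box (GGGCGG) lay in all 9 windows, against 35.7% of 32851 windows of the same length over all genes. The heat shock element, written as GAANNTTC, lay in 2 windows, those of *Hspd1* and *Hspe1*, against 7.86% of all windows, and the window of *Cct2* that was not counted holds one as well (GAAGTTTC on its own strand, 42 bases before that start). The ETS motif CCGGAAGT lay in 2 windows, those of *Tcp1* and *Cct8*, against 3.89% of all windows. The CCAAT box lay in 4 of the 9 (37.4% of all windows), and the E-box CACGTG and the TATA box TATAAA in 0 of the 9 (7.15% and 13.6% of all windows), with an E-box in the *Hspd1* window that was not counted. None of these motifs overlapped another in the sequences shown, and a match says only that the letters are there.

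*Hspd1* and *Hspe1* are shown first because they are read in opposite directions from starts that are 215 bases apart on chromosome 1, so that a single heat shock element counts for both. The sequence between their listed starts is given on the *Hspe1* strand (chr1:55087933-55088147, plus strand), with the heat shock element and 2 GC boxes in capitals.
Hspd1-Hspe1 start region: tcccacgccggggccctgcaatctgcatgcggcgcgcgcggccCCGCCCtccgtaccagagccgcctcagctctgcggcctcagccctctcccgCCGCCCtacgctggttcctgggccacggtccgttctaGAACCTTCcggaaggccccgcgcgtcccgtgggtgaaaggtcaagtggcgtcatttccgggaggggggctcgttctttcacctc
On each gene's own strand the 28 bases around that element (chr1:55088054-55088081) read as follows, with the element in capitals. It starts 139 bases before the listed start of *Hspd1* and 84 bases before that of *Hspe1*.
Hspd1 strand (minus): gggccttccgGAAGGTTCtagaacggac
Hspe1 strand (plus): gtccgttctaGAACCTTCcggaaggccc

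Among the CCT subunits, *Cct8* and *Cct2* had the highest and the lowest log2 fold change (2.03 and 0.82), and the 250 bases before their starts are shown for that reason. In that of *Cct8* (chr16:87495870-87496119, minus strand) the capitals mark 1 GC box and the ETS motif, which starts 37 bases before the start of transcription. In that of *Cct2* (chr10:117063853-117064102, minus strand) they mark 4 GC boxes on the opposite strand (CCGCCC).
Cct8: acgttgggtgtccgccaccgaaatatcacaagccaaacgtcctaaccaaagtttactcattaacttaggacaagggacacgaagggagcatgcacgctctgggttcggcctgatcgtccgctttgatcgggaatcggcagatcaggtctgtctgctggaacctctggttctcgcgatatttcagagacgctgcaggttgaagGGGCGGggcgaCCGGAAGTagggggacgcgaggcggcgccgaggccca
Cct2: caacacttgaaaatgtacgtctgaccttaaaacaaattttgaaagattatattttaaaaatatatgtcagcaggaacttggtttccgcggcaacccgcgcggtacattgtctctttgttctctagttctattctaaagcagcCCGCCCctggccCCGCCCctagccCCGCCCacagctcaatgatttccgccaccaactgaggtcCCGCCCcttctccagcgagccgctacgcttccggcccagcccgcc
The ETS motif of *Tcp1* lies on the opposite strand and starts 5 bases before the start. It is shown in capitals within 28 bases (chr17:12916314-12916341, plus strand).
Tcp1: gcagccccctACTTCCGGcgttttcagt

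*Cct8*, the theta subunit, changed most. It had 542 and 447 RPKM in the IL-33 libraries, against 128 and 112 RPKM in the chronic HDM libraries. The lower of the IL-33 libraries was 3.48 times the higher of the chronic HDM libraries. The log2 fold change was 2.03 ± 0.18 (SE; limma adjusted p = 0.00687). *Cct8* lies on chromosome 16 (chr16:87483325-87495869, minus strand). *Usp16*, on the other strand, overlaps 8.02% of its exon bases and had 40.7 and 32.8 RPKM after IL-33, against 32.5 and 11.3 RPKM after chronic HDM.

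*Cct5*, the epsilon subunit, was the most abundant subunit RNA after IL-33. It had 613 and 591 RPKM in the IL-33 libraries, against 174 and 152 RPKM in the chronic HDM libraries. The groups stood far apart, with a mean of 602 ± 15.8 RPKM after IL-33 and 163 ± 16.1 RPKM after chronic HDM (SD, n = 2 each). The log2 fold change was 1.88 ± 0.16 (SE; limma adjusted p = 0.00687). The gene (chr15:31590884-31601804, minus strand) shares no 51-base stretch, the read length used, with a transcript of another gene.

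*Tcp1*, the alpha subunit and the founding member of the family, gave 298 and 264 RPKM in the IL-33 libraries, against 97.8 and 67.6 RPKM in the chronic HDM libraries. The chronic HDM libraries differed from each other by 1.45-fold, and the lower IL-33 library was still 2.70 times the higher of them. The log2 fold change was 1.77 ± 0.24 (SE; limma adjusted p = 0.0111), which passed the second rule only. *Tcp1* (chr17:12916329-12925067, plus strand) meets the ends of *Acat3* and *Mrpl18* on the other strand. These overlap 16.5% of the exon bases of its GENCODE transcript, which is 1902 bases long, against 2400 for the listed transcript. *Acat3*, a thiolase, had 39.6 and 33.8 RPKM after IL-33, against 12.6 and 8.26 RPKM after chronic HDM. *Mrpl18*, a mitochondrial ribosomal protein, had 156 and 157 RPKM after IL-33, against 150.5 and 69.1 RPKM after chronic HDM.

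*Cct6a*, the zeta subunit expressed in most tissues, whose close relative *Cct6b* is known from testis, had 219.35 and 219.44 RPKM in the IL-33 libraries, against 70.0 and 81.3 RPKM in the chronic HDM libraries. The log2 fold change was 1.53 ± 0.19 (SE; limma adjusted p = 0.00964). Its call lies close to the threshold of 0.01. The listed span of *Cct6a* (chr5:129787356-129846443, plus strand) is 59088 bases. *Psph*, a serine biosynthesis phosphatase, lies on the other strand. It overlaps 18.4% of the exon bases of the longest GENCODE transcript of *Cct6a* (2454 bases). None matched the listed transcript (2156 bases), so the overlap with the counted exons may differ. *Psph* had 96.1 and 72.2 RPKM after IL-33, against 20.2 and 12.9 RPKM after chronic HDM, so it moved the same way as *Cct6a*. Smart-seq2 libraries keep no strand, and reads from the shared bases cannot be assigned to *Cct6a* or to *Psph*. The part of *Psph* in the *Cct6a* value, and of the other overlapping genes in those of *Tcp1*, *Cct7* and *Cct8*, was not tested.

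*Cct3*, the gamma subunit, differed little within either group, with 358 and 363 RPKM in the IL-33 libraries, against 138 and 142 RPKM in the chronic HDM libraries. Libraries of a group differed by less than 3% of their level, while the groups differed by 2.57-fold in mean RPKM. The log2 fold change was 1.36 ± 0.16 (SE; limma adjusted p = 0.00857). *Cct3* (chr3:88297135-88321766, plus strand) shares 1.82% of its 51-base stretches with transcripts of genes elsewhere in the genome.

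*Cct7*, the eta subunit, had 327 and 332 RPKM in the IL-33 libraries, against 172 and 115 RPKM in the chronic HDM libraries. The chronic HDM libraries were 1.497-fold apart, the widest replicate difference among the 10 genes. The log2 fold change was 1.23 ± 0.23 (SE; limma adjusted p = 0.0232), past the second rule only. Of the 11 alternative fits that kept all 4 libraries, the second rule called *Cct7* in 6. The gene (chr6:85451505-85468477, plus strand) shares 8.77% of its exon bases with *Pradc1* on the other strand, which had 24.4 and 23.4 RPKM after IL-33, against 27.5 and 11.2 RPKM after chronic HDM.

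*Cct4* and *Cct2*, the delta and beta subunits, had the smallest differences in CCT. *Cct4* had 360.1 and 307 RPKM in the IL-33 libraries, against 189 and 149.9 RPKM in the chronic HDM libraries, with a log2 fold change of 0.98 ± 0.20 (SE; limma adjusted p = 0.0257). *Cct2* had 124 and 109.6 RPKM in the IL-33 libraries, against 68.1 and 63.6 RPKM in the chronic HDM libraries, with a log2 fold change of 0.82 ± 0.20 (SE; limma adjusted p = 0.0424). Neither gene overlapped between groups, and both missed the fold threshold rather than the p threshold of 0.05. *Cct4* is at chr11:22990593-23003336 on the plus strand and *Cct2* at chr10:117050998-117063814 on the minus strand. *Cct2* shares no 51-base stretch with another gene's transcripts and *Cct4* shares 0.575% of them.

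In yeast, the counterparts of *Tcp1*, *Cct2*, *Cct4* and *Cct5* bind ATP more tightly than the other 4 and sit together on one side of the ring. The subunits did not divide along this line here. The tighter-binding set held *Cct5* and *Tcp1* with log2 fold changes of 1.88 and 1.77 and also *Cct4* and *Cct2* with 0.98 and 0.82. The other set lay between 1.23 (*Cct7*) and 2.03 (*Cct8*).

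**Figure D2:**
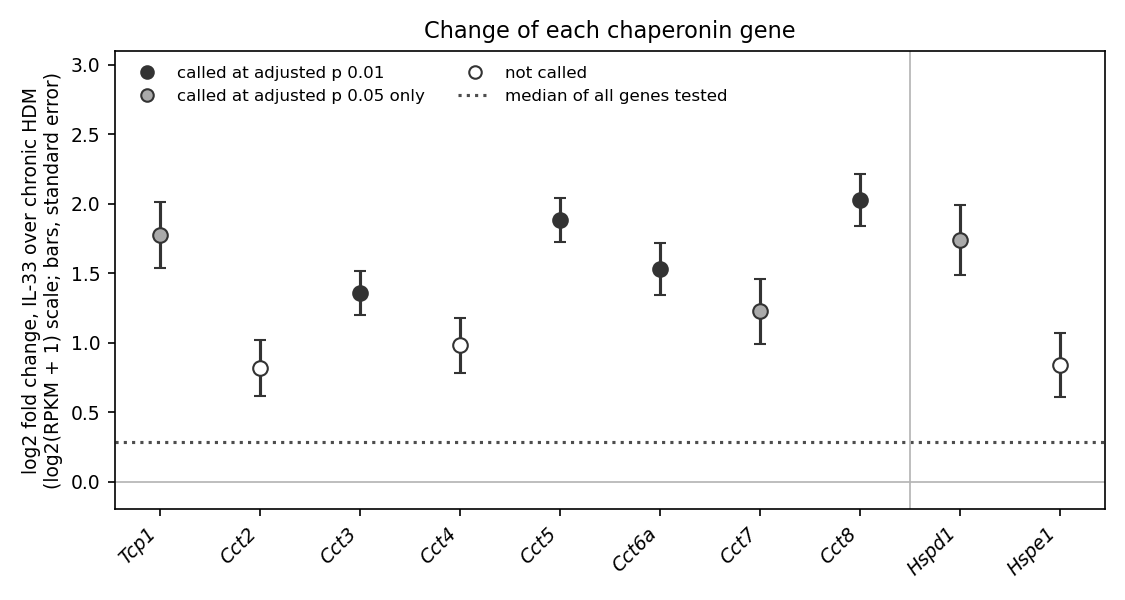
Log2 of the IL-33 over chronic HDM fold for each gene, with its standard error from limma. Black points were called at an adjusted p of 0.01, grey at 0.05 only and white by neither rule, and dots at 0.28 show the all-gene median. Points range from 0.82 (Cct2) to 2.03 (Cct8), and Hspd1 at 1.74 stands above Hspe1 at 0.84.

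Summed over the 8 subunits, CCT RNA amounted to 2842 and 2633 RPKM in the IL-33 libraries and to 1037 and 883 RPKM in the chronic HDM libraries. The protein ring uses equal numbers of every subunit, but the RNA levels were unequal, and more so after IL-33. The most abundant subunit had 4.93 and 5.39 times the RPKM of the least abundant in the IL-33 libraries, against 2.77 and 2.38 times in the chronic HDM libraries. The coefficient of variation over the 8 subunits was 44.8% and 44.3% after IL-33, against 36.5% and 32.7% after chronic HDM. RPKM is per length of the listed transcript, so these are comparisons of level between genes on a per-length scale. No test was run on these values.

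After IL-33 the order of levels was *Cct5*, then *Cct8*, then *Cct3*, *Cct4* and *Cct7*, whose ranges overlapped from one to the next, then *Tcp1*, *Cct6a* and *Cct2*. After chronic HDM the first 4 places were held by *Cct4*, *Cct5*, *Cct7* and *Cct3* with overlapping ranges, followed by *Cct8*, by *Tcp1* and *Cct6a* with overlapping ranges, and by *Cct2*. *Cct2* was the least abundant subunit in every library. As a share of the summed RPKM, *Cct8* made up 19.1% and 17.0% after IL-33, against 12.4% and 12.7% after chronic HDM. *Cct5* made up 21.6% and 22.5% after IL-33, against 16.8% and 17.2% after chronic HDM. *Tcp1* was also separate in this direction, with 10.5% and 10.01% after IL-33, against 9.43% and 7.66% after chronic HDM.

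The share went the other way for 3 subunits. *Cct4* made up 12.7% and 11.7% after IL-33, against 18.2% and 17.0% after chronic HDM. *Cct2* made up 4.38% and 4.16% after IL-33, against 6.57% and 7.20% after chronic HDM. For *Cct7* the shares were 11.5% and 12.6% after IL-33, against 16.5% and 12.98% after chronic HDM, a narrow gap. The shares of *Cct3* and *Cct6a* overlapped between the groups. Since the shares sum to 100%, a higher share of some subunits lowers that of the rest.

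**Figure D3:**
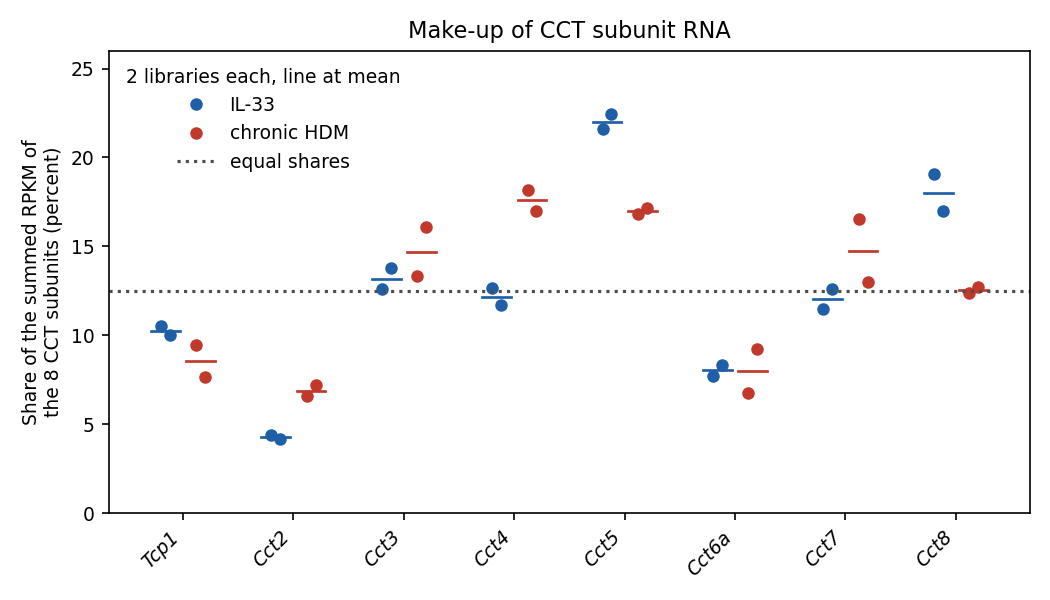
Share of each subunit in the summed RPKM of the 8 CCT subunits (percent), for the 2 IL-33 libraries (blue) and the 2 chronic HDM libraries (red) with a line at each mean and a dotted line at equal shares. Cct5 and Cct8 lie higher after IL-33 (22.0% and 18.0% on average, against 17.0% and 12.6% after chronic HDM), Cct4 and Cct2 lie lower, and Cct3 and Cct6a overlap.

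Of the mitochondrial pair, *Hspd1*, which forms the barrel, had 109 and 81.2 RPKM in the IL-33 libraries, against 28.7 and 26.4 RPKM in the chronic HDM libraries. Its log2 fold change was 1.74 ± 0.25 (SE; limma adjusted p = 0.0127), past the second rule only. *Hspe1*, which forms the lid, had 164 and 120.4 RPKM in the IL-33 libraries, against 73.5 and 83.1 RPKM in the chronic HDM libraries. Its log2 fold change was 0.84 ± 0.23 (SE; limma adjusted p = 0.0584), so it passed neither rule. The groups did not overlap for either gene, and the IL-33 libraries differed from each other by 1.35-fold for *Hspd1* and 1.36-fold for *Hspe1*, in the same direction.

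Although both are read from the start region shown above, the ratio of *Hspd1* to *Hspe1* differed between the groups. It was 0.666 and 0.674 in the IL-33 libraries, against 0.391 and 0.317 in the chronic HDM libraries. The difference of the means was 0.316, several times the SD of either pair (0.00577 after IL-33 and 0.0520 after chronic HDM). An exact two-sided permutation test gave p = 0.333, the smallest p that 2 against 2 libraries allow. *Hspd1* (chr1:55077834-55087932, minus strand) shares 44.3% of its 51-base stretches with transcripts of 9 genes elsewhere, among them *Hspd1-ps3*. *Hspe1* (chr1:55088148-55091317, plus strand) shares 35.5% with 5 such genes, and an *Hspd1* transcript overlaps 14.5% of its exon bases. Because reads with several matching places can be lost or shared out, the level of *Hspd1* and *Hspe1* and their ratio are less certain than the CCT levels. The part of such reads in the ratio was not tested.

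Other genes of the folding pathways were read from lists of genes by role. Those that hand substrates to CCT come first. Of the 6 subunits of prefoldin, which delivers unfolded actin and tubulin, 0 were called by the first rule and 1 (*Vbp1*) rose by the second, with a median log2 fold change of 0.52. The most abundant, *Pfdn5*, had 162 and 126 RPKM after IL-33, against 151 and 193 RPKM after chronic HDM, overlapping between groups. Of 4 genes tested from a list of CCT cofactors, 0 were called by the first rule and 1 (*Txndc9*) rose by the second, with a median of 0.79. The log2 fold changes were 1.07, 0.51 and 1.79 for the phosducin-like *Pdcl*, *Pdcl3* and *Txndc9*. For *Nudcd3*, which is not of that family, it was -0.28. Neither the difference between these lists and CCT nor that of any other list was tested.

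Clients of CCT were mixed. Of 11 actin and tubulin genes tested, 2 rose by the first rule (*Actb* and *Tubb6*) and 4 by the second (*Tuba1b* and *Tubg1* in addition), with a median log2 fold change of 0.84. *Actb*, cytoplasmic beta-actin, had 7913 and 9292 RPKM after IL-33, against 3129 and 3526 RPKM after chronic HDM (log2 fold change 1.37; limma adjusted p = 0.00687). *Tubb6*, a beta-tubulin, had 152 and 157 RPKM after IL-33, against 31.8 and 24.3 RPKM after chronic HDM (log2 fold change 2.43; limma adjusted p = 0.00687). Of 13 other clients, *Pdcl* again among them, 2 rose by either rule, the mitotic regulators *Cdc20* and *Plk1*. *Cdc20* had 89.7 and 88.3 RPKM and *Plk1* 44.6 and 54.7 RPKM after IL-33, and no read of either gene was present in the chronic HDM libraries. The tubulin cofactors that act after CCT differed in direction. Of 6 tested, *Tbca* fell by the second rule, with 44.1 and 48.7 RPKM after IL-33, against 114.9 and 124 RPKM after chronic HDM (log2 fold change -1.35; limma adjusted p = 0.0135), while 0 rose. The list median was 0.81, and 3 of the 6 were higher in both IL-33 libraries than in both chronic HDM libraries. Among these *Tbcb* had 117 and 121 RPKM after IL-33, against 60.5 and 73.0 RPKM after chronic HDM (log2 fold change 0.83).

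Among the cytosolic heat shock proteins, *Hspa8*, the constitutive HSP70, had 594 and 524 RPKM after IL-33, against 154 and 118 RPKM after chronic HDM. Its log2 fold change of 2.04 (limma adjusted p = 0.00687) was close to that of *Cct8*. It was the only one of 6 HSP70 and HSP110 genes called by the first rule, and by the second *Hsph1*, an HSP110 that helps HSP70 exchange its nucleotide, rose as well (median 1.31). The heat-inducible *Hspa1a* and *Hspa1b* stayed below the minimum of 2 RPKM and were not tested. Of 15 genes for HSP90 and its co-chaperones, 0 were called by the first rule, with a median log2 fold change of 1.04. By the second rule 6 rose (*Hsp90aa1*, *Stip1*, *Ahsa1*, *St13*, *Chordc1* and *Bag2*) and 1 (*Ptges3*) fell. *Hsp90aa1*, an HSP90 gene, had 99.5 and 74.9 RPKM after IL-33, against 15.0 and 20.4 RPKM after chronic HDM (log2 fold change 2.24; limma adjusted p = 0.0105). *Hsp90ab1*, the constitutive HSP90, had 880.2 and 789 RPKM after IL-33, against 545 and 563 RPKM after chronic HDM, with a log2 fold change of 0.59. None of the 8 HSP40 genes (median 0.52) was called by either rule. Nor was *Hspb11*, the only gene tested from the small heat shock protein list. The same held for the heat shock factor genes *Hsf1* and *Hsf2* and for *Hsbp1*, a factor-binding protein gene. *Hsf1*, the factor that binds heat shock elements, had 28.9 and 27.6 RPKM after IL-33, against 54.7 and 40.3 RPKM after chronic HDM.

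In mitochondria, *Hspa9*, the matrix HSP70 that passes imported proteins on to HSP60, had 251 and 237 RPKM after IL-33, against 124 and 96.7 RPKM after chronic HDM. Its log2 fold change was 1.15 (limma adjusted p = 0.0187), so that it rose by the second rule. Of 7 genes of the mitochondrial HSP70 and HSP90 machinery, 2 rose by that rule (*Hspa9* and *Grpel1*), as did 2 of 10 protease genes (*Afg3l1* and *Afg3l2*) and 4 of 12 import genes (*Tomm40*, *Timm17a*, *Timm23* and *Timm50*), with medians of 0.61, 0.48 and 0.99. None of these 29 was called by the first rule. Among 4 transcription factor genes of mitochondrial stress, *Ddit3* rose by the second rule, with 453 and 385 RPKM after IL-33, against 181 and 179 RPKM after chronic HDM, and *Cebpb* fell. *Atf4* did not differ beyond its spread, with 128 and 125 RPKM after IL-33, against 102 and 150.4 RPKM after chronic HDM. Of 2 CCT-related chaperonin genes of the cilium tested, *Bbs12* and *Mkks*, 0 were called, and both lay higher after chronic HDM.

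**Figure D4:**
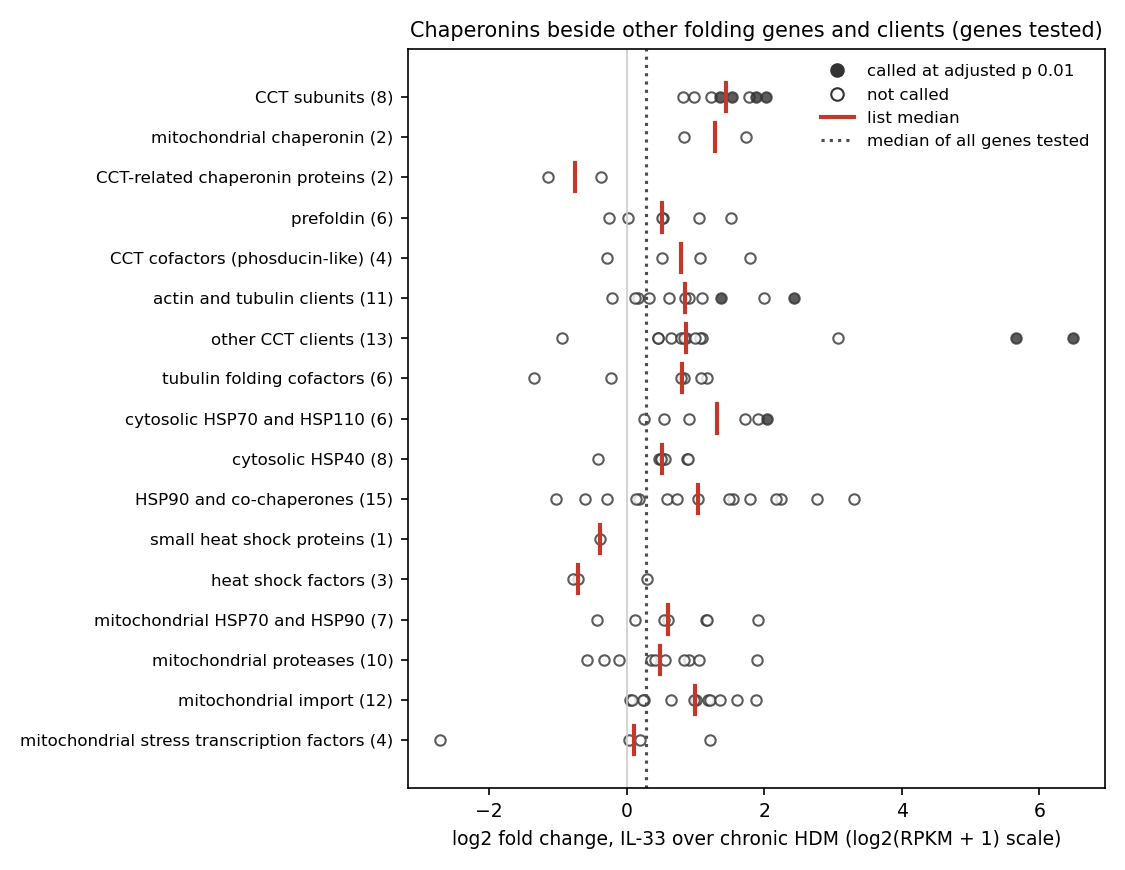
Log2 of the IL-33 over chronic HDM fold for the chaperonin genes and for 15 lists of related genes, with 1 point per gene tested (number in brackets), black where called at an adjusted p of 0.01, a red line for the list median and dots for that of all genes (0.28). The CCT subunits all lie right of the dotted line with a median of 1.44. The 2 rightmost points among the other CCT clients are fitted values of genes with no read after chronic HDM and carry no exact size. The list marked phosducin-like includes Nudcd3, which is not of that family, and that of heat shock factors includes Hsbp1, a factor-binding protein gene.

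Genes of the cell cycle moved with CCT in these libraries. All 20 listed rose by the second rule and 14 by the first, and their summed RPKM was 1839 and 1978 after IL-33, against 176 and 145 after chronic HDM. Their part in the chaperonin differences was not tested. Dendritic cell markers summed to 554 and 545 RPKM after IL-33, against 44.7 and 91.9 RPKM after chronic HDM. *Cd209a* was at 0 in all libraries. Of 4 tested, *H2-Aa* and *Ccr7* were higher after IL-33 by the second rule. *H2-Aa*, an MHC class II gene, had 333 and 327 RPKM after IL-33, against 29.3 and 73.5 RPKM after chronic HDM. *Ccr7* had 211 and 208 RPKM after IL-33, against 8.42 and 6.06 RPKM after chronic HDM. *Xcr1* (higher after IL-33) and *Itgax* (higher after chronic HDM) were not called. The study lists *Ccr7* as high in the acutely activated cells and cites MHC class II expression by cells of this type. The sum is therefore not specific to dendritic cells. T cell markers summed to 127 and 158 RPKM after IL-33, against 210 and 194 RPKM after chronic HDM, with *Cd4*, *Cd8a*, *Cd8b1* and *Cd5* at 0. Of 2 tested, *Lck* was higher after chronic HDM by the second rule (46.9 and 53.8 RPKM after IL-33, against 138 and 111 RPKM), and *Cd3g* overlapped between groups. Of 9 macrophage markers tested, 3 were higher after chronic HDM by the second rule, as were 455 of all 9523 genes tested. The other lists (B cell, eosinophil, neutrophil, basophil and mast cell, epithelial and erythroid) summed to less than 80 RPKM in every library. Some of their genes still differed. *Mcpt8* had 45.8 and 39.2 RPKM after IL-33 and no read after chronic HDM, and was called by the first rule. By the second rule *Cd79b*, *Hba-a1* and *Hba-a2* were higher after IL-33 and *S100a8* after chronic HDM. The part of other cells in the chaperonin values was not tested.

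The 5 genes whose pattern over the 4 libraries lay nearest to the mean pattern of the 8 CCT subunits were *Trappc1*, *Eif4a1*, *Pgm1*, *Psmd12* and *Pds5b*. Likeness was the Euclidean distance between log2(RPKM + 1) values centred on each gene's mean, over 8953 named genes. The distances of these 5 ran from 0.0342 to 0.0669, while the subunits themselves lay 0.218 (*Cct3*) to 0.638 (*Cct2*) from their own mean. *Trappc1*, part of a vesicle-tethering complex, had 109 and 102 RPKM after IL-33, against 40.2 and 35.7 RPKM after chronic HDM. *Eif4a1*, a translation initiation helicase, had 121 and 115 RPKM after IL-33, against 46.5 and 40.2 RPKM after chronic HDM. For *Hspd1* and *Hspe1* the nearest were *Ldhb*, *Kpna3*, *Casp6*, *Psma4* and *Mkln1*, at distances of 0.0724 to 0.122. With 4 libraries many genes share such a pattern, and the order is a description.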

How the data were processed

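The authors prepared Smart-seq2 libraries, sequenced them as single 51-base reads and mapped them with HISAT2 to mm10 (per the submitters' processing notes, version 2.0.4). The deposited values are RPKM per gene, which HOMER computed over the exons of 1 RefSeq transcript per gene, as the file headers show; how reads with several matches were handled is not given in the sources used here beyond the word unique in the headers. HOMER's own version is not given in the sources used here. The authors' test was DESeq2 on counts. Here the RPKM were used as deposited, as log2(RPKM + 1), for the 9523 genes averaging 2 RPKM or more, in limma 3.58.1 (two-sided; R 4.3.3), with moderated variances that follow the mean level and Benjamini-Hochberg adjustment, with 2 libraries per group and no covariate. The thresholds of 0.01, 1 (log2) and 2 RPKM are those of the study, and 0.05 is a second rule. A pseudocount of 1 understates changes of low genes.

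Within 0.1 of a read, 99.8% to 100% of the values came out as whole reads, which gave the depths. The genes described and the lists were chosen with earlier results of these data known. Picked for naming beside the 10 chaperonin genes were, from each list, up to 4 genes called by the first rule in order of adjusted p. With none called, up to 2 of highest mean RPKM were picked, and the 5 nearest genes by pattern were added. Several picks are not described above, among them *Tomm22* (log2 fold change 0.05), *Dnajc7* and those of the cell cycle. Cell type markers, the genes overlapping a member on the other strand, untested *Hspa1a* and *Hspa1b*, *Pdcl*, *Hsf2*, and list genes called by the second rule only were named outside this rule, after their values were seen. Shared 51-base stretches and overlaps came from GENCODE vM21, promoters from RefSeq (GRCm38.p6), and figures from matplotlib 3.10.9. The GENCODE transcript was that matched to the listed RefSeq transcript, or for *Cct6a* the longest of the gene, and its length can differ from that listed.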

Additional observations from a re-analysis of the deposited data

How the results depend on the processing

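No log2 fold change of a chaperonin gene changed sign under any of 15 alternatives, but most of these could not change it. The minimum, variance and block settings leave the estimate as it was. With both IL-33 libraries above both chronic HDM libraries, a pseudocount or a left-out library cannot reverse it. Only quantile normalization, the rescalings and limma-voom could. The ranges were 1.55 to 2.16 for *Cct8*, 1.40 to 1.98 for *Cct5*, 1.29 to 1.95 for *Hspd1*, 0.28 to 0.91 for *Cct2* and 0.30 to 1.06 for *Hspe1*. The calls moved more. Against 4 of the 10 called at an adjusted p of 0.01 and 318 of all genes, 0 and 0 were called without a minimum, without the intensity trend, with 0.1 as pseudocount and by limma-voom on the recovered reads; 2 and 267 were called with quantile normalization, 2 and 125 with median-of-ratios scaling, and 2 and 122 with scaling without 45S ribosomal RNA. With a minimum of 5 RPKM, 6 of the 10 and 609 of all genes were called. With 2 as pseudocount these were 5 and 470, and with robust variances 4 and 297. At 0.05 the 7 called became 5 to 7 in the 11 alternatives that kept all libraries; *Tcp1*, *Cct5*, *Cct6a*, *Cct8* and *Hspd1* were called in all 11. Leaving out a library gave 0 to 8 of the 10 at either threshold and 0 to 2470 of all genes at 0.01. Without IL-33 replicate 1 or without IL-33 replicate 2, 0 of the 10 were called at either threshold and 0 of all genes at 0.01. The 10 gave 8 at both thresholds without chronic HDM replicate 1, and 6 at both without chronic HDM replicate 2. The count over all genes at 0.01 was far above 318 in both of these fits, with 2470 of 9523 without chronic HDM replicate 2. The higher counts were therefore not particular to the chaperonin genes. The share of all genes at 0.05 was not counted. In each of these fits the group left with 1 library is assumed to vary like the other. The replicate number as a block gave 7 called at 0.01 and 1254 of all genes, but the numbers do not pair the libraries (correlation of same-numbered deviations -0.0385). The median of the 8 CCT subunits was 1.44, and 0.91 with quantile normalization, where the median of all genes tested was -0.00287 in place of 0.28 and the calls split 148 to 119 in place of 267 to 51. Median-of-ratios scaling and scaling without 45S ribosomal RNA put the median of all genes at 0.07 and 0.08 and that of CCT at 1.21 each. The *Hspd1* to *Hspe1* difference lay between 0.279 and 0.353 without each library. The causes were not tested. With 2 libraries per group, few changes of modest size can be called, and a missed threshold does not show that a gene did not differ.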
